A study of Saccharomyces cerevisiae with 4 samples.

Results

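The genes described are 10 mating and pheromone response genes of budding yeast, Saccharomyces cerevisiae: MFA1, STE2, BAR1, FUS3, AGA1, AGA2, FUS1, PRM1, FIG1 and PRM6. They were chosen by name from what they do in mating, but with earlier results of these data known. Their counts and medians beside those of all genes are therefore a description, not an independent test. Each had 1 probe on the array, and all 10 were measured on all 4 arrays, among 5403 genes tested of the 5477 with a probe of their own. On 2 heat shock arrays, RNA of cells kept at 39 °C for 30 min was set against RNA of cells kept at 30 °C for 30 min. The other 2 arrays set cells exposed to celastrol, a plant triterpenoid, at 10 µM against cells exposed to DMSO, both for 1 h. The sources used here do not give strain, mating type, ploidy or medium. Array values are log2 ratios, treated over control, so negative values are lower in treated cells and each unit is a factor of 2. Base 2 was read from heat shock replicate 1 and is assumed for the other 3 arrays.

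Haploid yeast cells come in mating types a and alpha, and each secretes a peptide pheromone that the other type detects. The bound receptor releases a G protein, a kinase cascade ending in Fus3 is switched on, and the transcription factor Ste12 raises genes for adhesion, growth toward the partner and cell fusion. In a culture of a single mating type without pheromone the pathway runs at a low basal rate, which keeps some of these genes expressed at low levels. MFA1, STE2, BAR1 and AGA2 are genes of a cells. The other members are expressed in both haploid types.

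Heat shock lowered 4 of the 10 genes and raised 0. These were PRM6, FIG1, AGA2 and AGA1, which act in adhesion and in ion movement at the cell surface. Of all genes tested, 4.79% were called lower and 4.28% higher by limma's moderated test, with p-values adjusted by Benjamini-Hochberg over the 5403 genes and called under 0.05. In all, 7 of the 10 genes had an unadjusted p under 0.05, against 1645 of 5403 genes. The median ratio of the 10 genes was −0.87 and that of all genes tested 0.0048. Values below 0 on both heat shock arrays were found for 8 of the 10 genes and for 36.7% of genes tested. After celastrol 0 of the 10 genes were called by limma (1, STE2, at an unadjusted p under 0.05), against 6.53% of all genes tested, 3.85% higher and 2.68% lower. Values below 0 on both celastrol arrays were found for 6 of the 10 genes and for 49.6% of genes tested. The median of the 10 genes was then −0.35 and that of all genes tested −0.11. In bulk RNA, fewer cells of a type and less RNA per cell cannot be told apart.

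**Figure D1:**
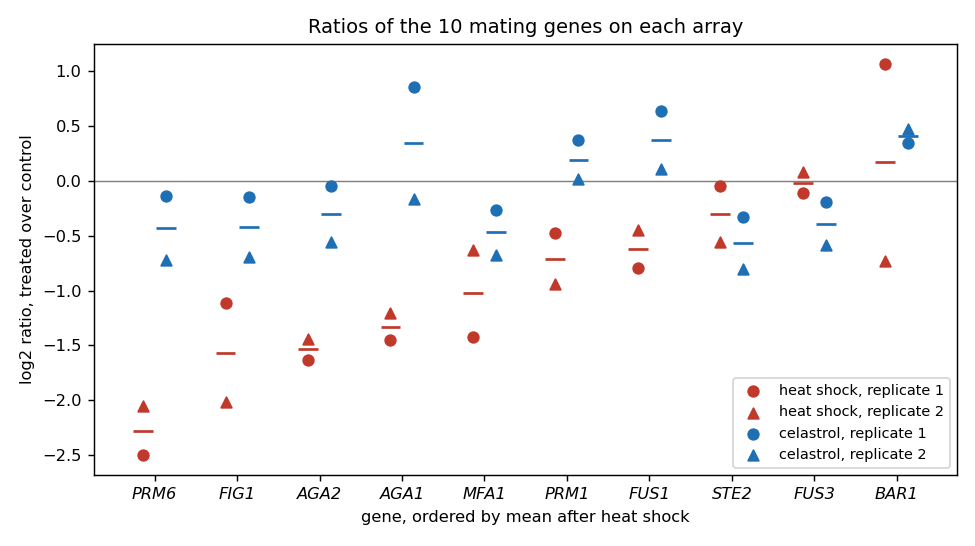
Log2 ratio of treated over control (vertical axis) of the 10 mating genes, ordered by their mean after heat shock. Circles are replicate 1 and triangles replicate 2, red for heat shock and blue for celastrol, and short lines are means of 2 arrays. PRM6, FIG1, AGA2, AGA1, PRM1 and FUS1 have both red points below both blue points.

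The calls after heat shock depend on the spread of all 4 arrays, which the fit pools. With the heat shock arrays alone all 4 calls were lost. Their limma adjusted p was then 0.0615 for PRM6 and AGA2, 0.0729 for AGA1 and 0.102 for FIG1. Limma called 0 of the 5403 genes in that fit, where the lowest adjusted p was 0.0615, so the loss was not particular to the members. With either celastrol array left out the heat shock values were the same, as the spread then rests on the heat shock arrays. AGA1 stood just inside the threshold and also lost its call without heat shock replicate 1 (−1.20, limma adjusted p = 0.0930). A fit with 1 heat shock array takes its spread from the celastrol arrays. MFA1 and BAR1 were at −1.42 and 1.07 on heat shock replicate 1, and at −0.63 and −0.73 on replicate 2. Every array had the treated sample in Cy5 and the control in Cy3, so a dye effect of a probe cannot be told apart from a treatment effect within 1 treatment.

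Among the pheromone and receptor genes, MFA1 encodes the precursor of a-factor, the lipid-modified peptide that a cells secrete. MFA1 (YDR461W) had ratios of −1.42 and −0.63 on the heat shock arrays, set against −0.27 and −0.67 for celastrol. All 4 values were below 0, and the second heat shock array lay within the range of the celastrol arrays. The mean after heat shock was −1.03 ± 0.56 (SD, n = 2), 0.491 of the control, with limma adjusted p = 0.0670. MFA2, the second a-factor gene, whose coding sequence is close enough to MFA1 that the probes may share signal, stood beside it after heat shock at −1.54 and −0.71 and apart from it after celastrol at 0.34 and −0.12. MFA2 was not called in any comparison (limma adjusted p = 0.0597 after heat shock).

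STE2 encodes the receptor through which a cells detect alpha-factor. STE2 (YFL026W) had ratios of −0.04 and −0.56 with heat shock, against −0.33 and −0.80 with celastrol. The treatments overlapped, and no array was above 0. Its mean after celastrol, −0.56 ± 0.33 (SD, n = 2), was the lowest of the 10 genes in that treatment, with limma adjusted p = 0.152. BAR1 encodes the secreted protease that degrades alpha-factor outside the cell. BAR1 (YIL015W) went opposite ways on the heat shock arrays, at 1.07 and −0.73, and was at 0.35 and 0.47 on the celastrol arrays. Its SD after heat shock, 1.27, was the largest of the 10 genes, and its mean of 0.17 has no settled direction.

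FUS3 encodes the mitogen-activated protein kinase at the end of the pheromone cascade. FUS3 (YBL016W) had ratios of −0.11 and 0.08 with heat shock, against −0.19 and −0.59 with celastrol. Its mean after heat shock was −0.02 ± 0.13 (SD, n = 2), and its 95% interval in limma ran from −0.47 to 0.44. Neither treatment gave a call (limma adjusted p = 0.960 and 0.210).

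The agglutinin genes supply the adhesion that holds mating partners together. AGA1 encodes the cell wall anchor of a-agglutinin, and AGA2 the binding subunit that is joined to it by disulfide bonds. AGA1 (YNR044W) had ratios of −1.46 and −1.20 with heat shock, against 0.86 and −0.17 with celastrol. AGA2 (YGL032C) had ratios of −1.63 and −1.44 with heat shock, against −0.04 and −0.56 with celastrol. For both genes the heat shock arrays lay close together and below the celastrol arrays. AGA1 fell to 0.398 of its control after heat shock (−1.33 ± 0.18, limma adjusted p = 0.0496) and AGA2 to 0.345 (−1.54 ± 0.14, limma adjusted p = 0.0183; both SD, n = 2). After celastrol AGA1 had a mean of 0.34 ± 0.72 and AGA2 one of −0.30 ± 0.36 (both SD, n = 2), neither called by limma. AGA1 had the widest spread between celastrol arrays of the 10 genes.

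FIG1 and PRM6 encode membrane proteins of ion movement during the pheromone response. Fig1 takes part in calcium influx and in the fusion of mating cells, and Prm6, also named Kch2, is a potassium transporter. PRM6 (YML047C) had ratios of −2.50 and −2.06 with heat shock, against −0.14 and −0.72 with celastrol. It was the lowest of the 10 genes on each heat shock array, and its heat shock mean lay at the 0.0555th percentile of genes tested. PRM6 fell to 0.206 of its control (−2.28 ± 0.32, SD, n = 2; limma adjusted p = 0.0133). Its relative KCH1, a potassium transporter gene added after its values were seen, was at −0.28 and −0.09 with heat shock, against −0.87 and −0.60 with celastrol, and was not called by limma in any comparison. PRM6 was also the 1 member among the 357 genes, 6.61% of those tested, whose 4 arrays were all below 0 and averaged −1 or less.

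FIG1 (YBR040W) had ratios of −1.12 and −2.02 with heat shock, against −0.15 and −0.69 with celastrol. All 4 were below 0, and the heat shock arrays did not overlap the celastrol arrays. FIG1 fell to 0.337 of its control after heat shock (−1.57 ± 0.64, SD, n = 2; limma adjusted p = 0.0364). Its mean after celastrol was −0.42 ± 0.38 (SD, n = 2; limma adjusted p = 0.362).

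FUS1 and PRM1 act at the fusion of the paired cells. Fus1 is a membrane protein of the fusion zone whose gene is a standard reporter of the pheromone response, and Prm1 acts in merging the plasma membranes. FUS1 (YCL027W) had ratios of −0.80 and −0.44 with heat shock, against 0.63 and 0.11 with celastrol. PRM1 (YNL279W) had ratios of −0.47 and −0.94 with heat shock, against 0.38 and 0.01 with celastrol. Both genes were below 0 on both heat shock arrays and above 0 on both celastrol arrays, as were 4% of genes tested, although the second celastrol value of PRM1 lay next to 0. Neither was called in a treatment, with limma adjusted p = 0.121 and 0.0910 with heat shock, against 0.278 and 0.558 with celastrol.

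Ordered by their heat shock means, the genes ran from PRM6 through FIG1, AGA2, AGA1, MFA1, PRM1, FUS1, STE2 and FUS3 to BAR1. PRM6 and FIG1 were the only neighbours in this order whose arrays did not overlap. The 4 called genes had heat shock means within the lowest 5% of genes tested, at the 0.0555th, 2.98th, 3.24th and 4.83rd percentiles. Between the celastrol arrays, 9 of the 10 genes were lower on replicate 2, BAR1 being the exception, as were 57.8% of genes tested. Between the heat shock arrays 4 of the 10 genes were lower on replicate 2, against 53.7% of genes tested.

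The treatments were compared by the difference of their mean ratios in the same fit. For 6 of the 10 genes, namely PRM6, AGA1, AGA2, FIG1, FUS1 and PRM1, both heat shock arrays lay below both celastrol arrays, as they did for 18.1% of genes tested. FUS3 lay the opposite way, with both heat shock arrays above both celastrol arrays, as did 28.9% of genes tested. The median difference, celastrol minus heat shock, was 0.95 over the 10 genes and −0.09 over all genes tested. Limma called 0 of the 10 differences, against 1.11% of all genes tested (0.537% higher and 0.574% lower after celastrol), while 6 had an unadjusted p under 0.05, against 741 of 5403 genes.

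PRM6 had the largest difference, 1.85 ± 0.31 (limma SE; limma adjusted p = 0.0783), with a 95% interval from 1.06 to 2.64. AGA1 followed at 1.67 ± 0.39 (limma adjusted p = 0.165) and AGA2 at 1.24 ± 0.27 (limma adjusted p = 0.146). FIG1, FUS1 and PRM1 differed by 1.15 ± 0.39, 0.99 ± 0.29 and 0.90 ± 0.28 (limma SE), at limma adjusted p-values of 0.308, 0.244 and 0.272. These 6 genes lay at the 96.2nd to 99.1st percentile of differences among genes tested. The differences of MFA1 (0.56), BAR1 (0.24), STE2 (−0.26) and FUS3 (−0.37) had 95% intervals that included 0, the widest being that of BAR1, from −1.30 to 1.77. Without heat shock replicate 2, the differences of PRM6, AGA1, AGA2 and FIG1 were 2.07, 1.80, 1.33 and 0.70. Without heat shock replicate 1 they were 1.62, 1.55, 1.14 and 1.60. Each of these fits rests on 1 heat shock array and takes its spread from the celastrol arrays.

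**Figure D2:**
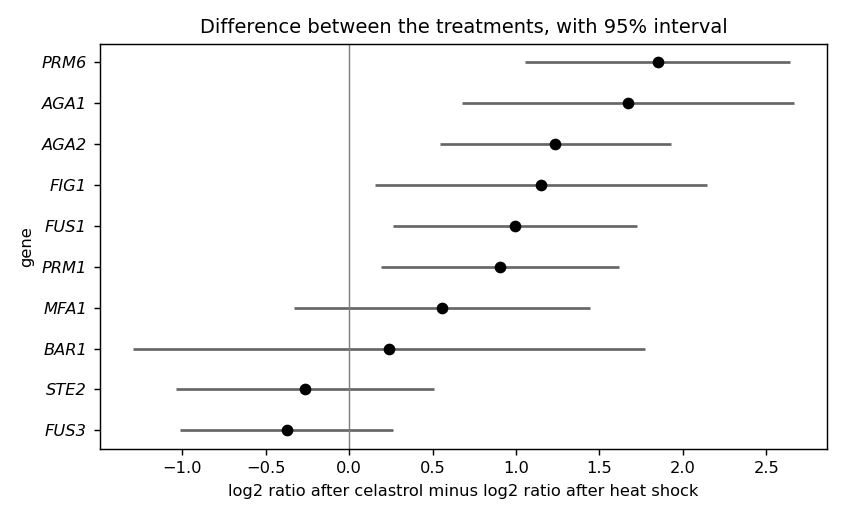
Difference between the mean log2 ratio after celastrol and after heat shock (horizontal axis, log2 units) for the 10 mating genes, with limma's 95% interval, not adjusted for multiple tests. The intervals of PRM6, AGA1, AGA2, FIG1, FUS1 and PRM1 lie above 0, although 0 of the 10 differences passed the adjusted threshold, and those of MFA1, BAR1, STE2 and FUS3 include 0.

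The rest of the pathway was read from 61 further genes in 6 lists by role. Of these, 2 were called lower after heat shock, FAR1 and KAR9, and 0 higher, against 4.79% and 4.28% of all genes tested. An unadjusted p under 0.05 was found for 19 of the 61, against 1645 of 5403 genes. The median of the 61 was −0.02, near that of all genes. FAR1, for the inhibitor that arrests the cell cycle in response to pheromone, was at −0.90 and −0.69 on the heat shock arrays, set against 0.02 and 0.27 for celastrol. It fell to 0.576 of its control after heat shock (−0.80 ± 0.15, SD, n = 2; limma adjusted p = 0.0496). KAR9, for a protein that orients the nucleus along microtubules, fell to 0.544 (−0.88 ± 0.17, SD, n = 2; limma adjusted p = 0.0388). Without either heat shock array the count of lower calls moved to 0 (replicate 1) and 10 (replicate 2), and it was 0 without either celastrol array.

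After celastrol 1 of the 61 genes fell, PRM10, a pheromone-regulated gene, at −0.75 and −1.23 against 0.39 and 0.41 after heat shock (mean −0.99 ± 0.34, SD, n = 2; limma adjusted p = 0.0449). None of the 61 rose by limma, and 12 had an unadjusted p under 0.05, against 1663 of 5403 genes. Over all genes tested, 2.68% were called lower and 3.85% higher after celastrol. The same background counts apply to the lists by role below. For the difference between treatments limma called 0 of the 61, against 1.11% of all genes tested. Their median difference was 0.03, and 8 had an unadjusted p under 0.05, against 741 of 5403 genes. Both heat shock arrays lay below both celastrol arrays for 16 of the 61 genes (18.1% of genes tested) and above them for 13 (28.9% of genes tested). The lower call for PRM10 was lost without either celastrol array, and without either heat shock array 6 genes were called lower and 3 higher after celastrol.

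**Figure D3:**
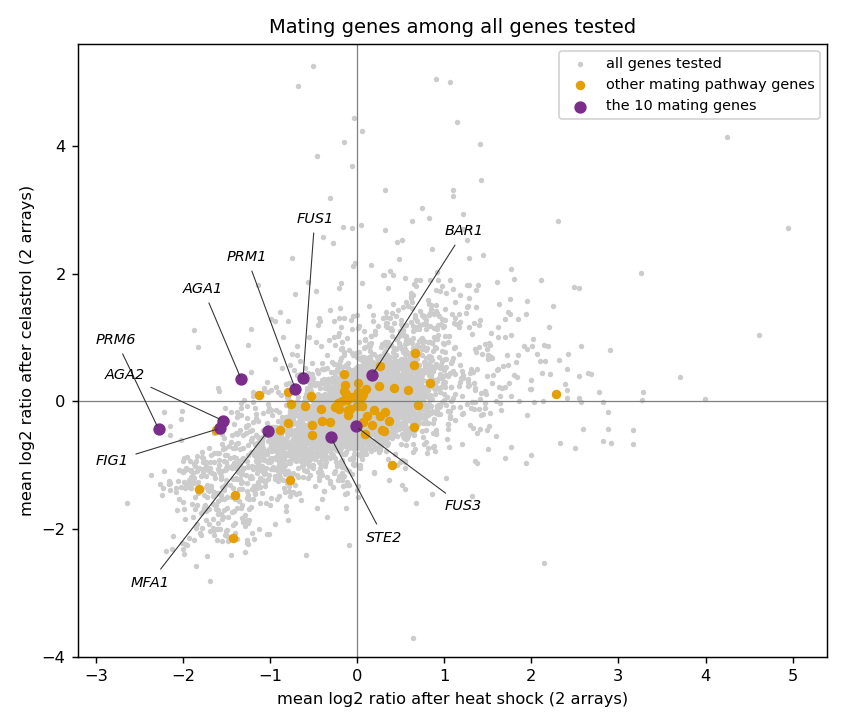
Mean log2 ratio after heat shock (horizontal axis) against that after celastrol (vertical axis), each over 2 arrays, for the 5403 genes tested (grey), 61 other mating pathway genes (orange) and the 10 mating genes (purple). PRM6, FIG1, AGA2 and AGA1 lie in the left part of the plot with celastrol means from −0.43 to 0.34, and most orange points lie near the centre.

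The 7 genes for the alpha-type receptor, the G protein and its regulators had a median of −0.02 after heat shock and 0.08 after celastrol, with 0 called by limma in either (2 and 1 at an unadjusted p under 0.05). The G protein genes GPA1, STE4 and STE18 had heat shock means of −0.11, −0.02 and 0.02, while STE3, for the a-factor receptor of alpha cells, was at 0.59, AFR1 at 0.66 and SST2, for the regulator that shuts off the G protein, at −0.41. Among 13 genes of the kinase cascade and its control, FAR1 alone was called, and 6 had an unadjusted p under 0.05 after heat shock and 3 after celastrol. STE11 and KSS1, for kinases of the cascade, had low means in both treatments, −1.42 and −1.40 with heat shock, against −2.14 and −1.46 with celastrol, but with SDs of 1.01 between the heat shock arrays for both. Both belong to the 357 genes that were low on all 4 arrays, as do MF(ALPHA)1, PRM9 and CIK1.

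The 6 transcription factor genes had 0 calls by limma in each treatment (1 at an unadjusted p under 0.05 in each), with medians of 0.03 after heat shock and −0.10 after celastrol. STE12, for the factor that binds the promoters of pheromone-induced genes, was at 0.13 and −0.03 with heat shock, against 0.35 and −0.51 with celastrol, which straddles 0 in both treatments. Of 14 genes for pheromone precursors and their processing limma called 0 in each treatment (2 at an unadjusted p under 0.05 in each), with medians of −0.16 and −0.00. Nuclear fusion genes, 6 in number, had medians of −0.46 after heat shock and −0.32 after celastrol. KAR9 alone was called, after heat shock, and 3 and 1 of the 6 had an unadjusted p under 0.05.

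The 15 other genes of agglutination, polarity and cell fusion, the list nearest in role to the adhesion and fusion genes above, had a median of 0.09 after heat shock, with 0 called by limma and 5 at an unadjusted p under 0.05. They ranged from −1.81 for PRM9 to 2.28 for PRM5. After celastrol their median was −0.03, with PRM10 alone called, lower, and 4 at an unadjusted p under 0.05. PRM5, which is known to respond to the cell integrity kinase pathway as well as to pheromone, was at 3.40 and 1.16 on the heat shock arrays (limma adjusted p = 0.0702). FIG2, for a cell wall adhesin of mating cells, had 2 probes, whose average was −0.99 and −0.53 with heat shock, against 0.37 and −0.44 with celastrol. The probes of PRM7, also 2, disagreed in sign on heat shock replicate 1 and celastrol replicate 1.

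**Figure D4:**
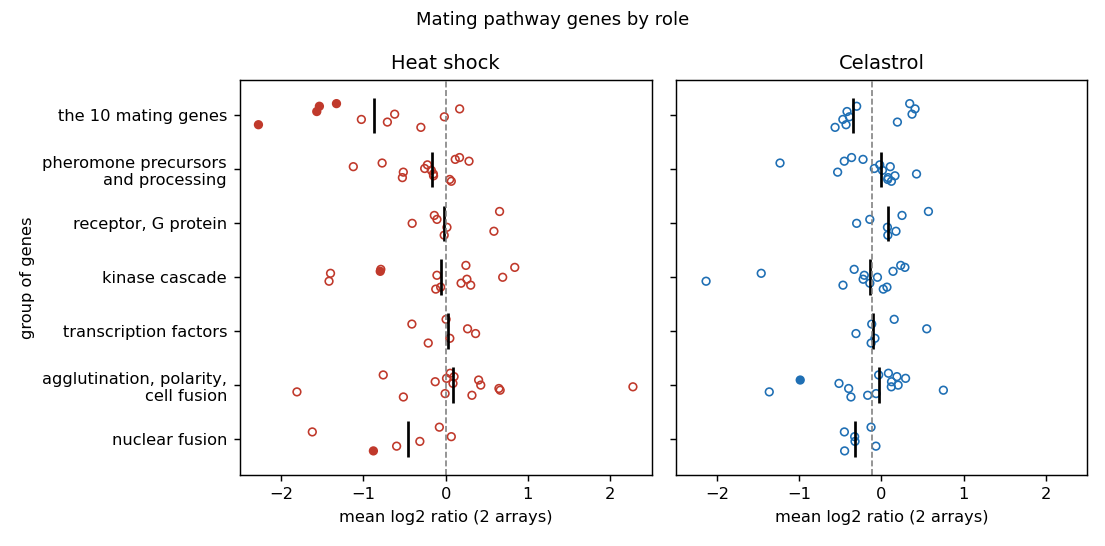
Mean log2 ratio over 2 arrays (horizontal axis) of mating pathway genes by role, after heat shock (left, red) and celastrol (right, blue). Each circle is a gene, filled where limma called it at an adjusted p under 0.05; black bars are group medians and the dashed line is the median of all genes tested. The 10 mating genes hold 4 filled circles after heat shock and 0 after celastrol.

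Genes that mark the mating types were read as ratios, which carry no level and so do not show the mating type of the cells. Of 8 genes specific to a cells, 4 of them among the 10 members, AGA2 alone was called after heat shock and 0 after celastrol. An unadjusted p under 0.05 was found for 3 of the 8 after heat shock, AGA2, MFA1 and MFA2, and for 1 after celastrol. The list medians were −0.22 after heat shock and −0.10 after celastrol. The 5 genes specific to alpha cells had medians of 0.10 and −0.17, with 0 called by limma and 1 at an unadjusted p under 0.05 in each treatment. The 8 meiosis genes, expressed in sporulating diploids, had medians of −0.08 and −0.32, with 0 called by limma (1 and 3 at an unadjusted p under 0.05). Filamentous growth, read from 8 genes, shares kinases of the cascade and Ste12 with mating. The list is not confined to genes of that cascade. Of these 8, KSS1 and TEC1 are also among the 61 genes above. All 8 were below 0 on both heat shock arrays, against 36.7% of genes tested, with a median of −0.65, and limma called 0 of them (4 at an unadjusted p under 0.05). After celastrol 4 of the 8 were below 0 on both arrays, against 49.6% of genes tested, with a median of −0.37 and 0 called by limma (2 at an unadjusted p under 0.05). Of 13 measured cell integrity genes, RLM1 (0.95 ± 0.20, limma adjusted p = 0.0388) and PST1 (2.54 ± 0.03, limma adjusted p = 0.00943; both SD, n = 2) rose after heat shock and 0 fell, against 4.28% of all genes called higher. PRM5 is in both this list and the 61 genes above. Of the 13, 5 had an unadjusted p under 0.05 after heat shock. After celastrol limma called 0 of the 13 (1 at an unadjusted p under 0.05). Both heat shock arrays lay above both celastrol arrays for 7 of the 13, against 28.9% of genes tested, and PST1 was called in the difference (−2.15, limma adjusted p = 0.0248).

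The genes nearest to the mean profile of the 10 members, by Euclidean distance over the 4 arrays in log2 units, were CIS3, for a cell wall mannoprotein (0.215), PDB1, for a subunit of pyruvate dehydrogenase (0.248), NSG1 (0.315), MRI1 (0.324) and ALK1 (0.344). The members' mean was −0.85 and −0.995 on the heat shock arrays, set against 0.11 and −0.36 for celastrol. The nearest gene to AGA1 was PHD1, for a transcription factor of filamentous growth, at a distance of 0.537. PRM6 was nearest to RPL10 (0.387) and FIG1 to TEF4 (0.456), genes for a ribosomal protein and a translation factor. No member had another gene of the mating lists as its nearest gene outside the 10. Those lists hold 61 of the 5403 genes tested, so this was likely whatever the profiles and says little about the pathway.

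Next to the members on their chromosomes, in the gene order of the R64 assembly, 17 of 20 neighbouring genes were measured. Of these 17, 2 were called after heat shock, 11.8% against 9.07% of all genes tested, and 0 after celastrol by limma. RPL24A, for a ribosomal protein next to AGA2, was at −2.66 and −1.26 after heat shock (limma adjusted p = 0.0484). YIL014C-A, next to BAR1, was at 0.83 and 0.84 (limma adjusted p = 0.0433). The neighbours of PRM6, GSF2 and PRP39, had heat shock means of 0.40 and −0.29, and those of FIG1, ATP3 and FAT1, had −0.40 and −0.34, none of them called.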

How the data were processed

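Per the labels, the authors compared treated (Cy5) with control RNA (Cy3) on each 2-colour array. Per the series' design text, the deposited log2 ratios average duplicate values and are relative to the chip's median signal. The sources used here name no array software, background correction or spot filter. The base was checked on the values: on heat shock replicate 1, 223 pairs differ by the log2 of a small whole-number ratio within 1e-08, against 2 for natural and 3 for decimal logs; the other arrays gave 1 to 6 such pairs for base 2.

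Of 6415 probes, 5619 have 1 gene in the platform annotation, 76 have several and 720 none. All 5619 gene IDs matched RefSeq's R64 table. Probes were averaged per gene, exact zeros (44, 47, 7 and 4 per array) were taken as missing, and the 5403 genes measured on all 4 arrays went into limma 3.58.1 (lmFit and eBayes, R 4.3.3), with 1 mean per treatment. Residual degrees of freedom were 2 and those of the prior 3.12. The script was tested on simulated data. The series text says that the experiments were done independently, but the labels do not say that replicates came from separate cultures. The p-values therefore measure the spread between these arrays, whose number limits the precision. Replicates correlated across genes with r = 0.66 (heat shock) and 0.853 (celastrol). Array SDs were 0.58 to 0.93, and median ratios −0.17 to −0.02. Each array's median was lower for the 720 probes with no gene. For heat shock it was −0.62 (replicate 1) and −0.10 (replicate 2), for celastrol −0.26 (replicate 1) and −0.44 (replicate 2). Whether weak signal by itself lowers a probe's ratio was not tested.

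Members and lists were chosen with earlier results of these data known. All 10 members are named. Of other lists, called genes are named and, where roles are contrasted, some others. The plan was up to 4 such others per list, which the receptor and G protein list exceeds. The 5 nearest genes by profile are named, and the nearest to each member was sought, of which 3 are printed. SLT2 of the cell integrity list has no probe of its own here, older symbols were matched through RefSeq, and KDX1 stands for its older name MLP1. Neighbouring genes, KCH1 and the values of single list members were chosen after values were seen. No sequences were used here. Alternatives were other treatments of zeros, 2 scalings, incomplete genes, robust eBayes, array weights, separate fits, a replicate block and each array left out.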

Additional observations from a re-analysis of the deposited data

Results flagged for a closer look

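FUS1 and PRM1 were the members that lay below 0 on both heat shock arrays and above 0 on both celastrol arrays. Their differences, celastrol minus heat shock, were 0.99 for FUS1 and 0.90 for PRM1 in log2 units, a separation that follows from how these genes were picked. The test of the difference in limma gave adjusted p = 0.244 for FUS1 and 0.272 for PRM1, so neither passed the correction, with adjusted p-values from 0.0650 to 0.831 and from 0.109 to 0.844 over the alternatives. Groups of 2 arrays are too small for a test of outlying samples.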

How the results depend on the processing

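The 30 values of single members (10 genes, 3 comparisons) were recomputed under the alternatives. They kept their direction and side of the threshold in 344 cases, lost a call in 22, gained one in 8 and changed sign in 6. Most of the 344 were uncalled values that stayed uncalled, since only 4 of the 30 were called as reported. Of 13 alternatives, PRM6 and AGA2 kept their heat shock call in 9, FIG1 in 8 and AGA1 in 4. The heat shock p-values were the same for the heat shock arrays alone and for either celastrol array left out. The sign changes were of uncalled values. FUS3 after heat shock was 0.0209 with median-centred arrays and from −0.11 to 0.0799 with a heat shock array left out. BAR1 after heat shock was −0.14 with quantile normalization and from −0.73 to 1.07 with a heat shock array left out, and its difference ran from −0.66 to 1.14. AGA1 after celastrol ran from −0.17 to 0.86 with a celastrol array left out. AGA1 also lost its heat shock call with exact zeros kept, with incomplete genes, with robust eBayes and with array weights (limma adjusted p = 0.0576, 0.0509, 0.0516 and 0.108), as FIG1 did with array weights (0.0584).

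Median-centring moved the median of all genes by 0.145 after celastrol and by 0.108 for the difference. Higher calls made up 47.1% of all calls after heat shock and 58.9% after celastrol, 51.8% and 73.8% with median-centred arrays, and 36.1% and 41.1% with quantile normalization.

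Counts are given as higher and lower. As reported, limma called 0 and 4 members, 0 and 2 of the wider list, and 231 and 259 genes after heat shock. After celastrol it called 0 and 0, 0 and 1, and 208 and 145, and for the difference 0 and 0, 0 and 0, and 29 and 31. With exact zeros kept, incomplete genes or robust eBayes, the wider list after heat shock had 1 lower. With median-centred arrays the wider list had 1 and 1 with heat shock, 1 and 0 with celastrol, and 87 genes were lower after celastrol. With quantile normalization 5 members were lower after heat shock, MFA1 being added (limma adjusted p = 0.0144), and the wider list had 2 and 8 after heat shock, 3 and 5 after celastrol and 1 lower in the difference, with 599 genes lower after heat shock, 423 and 605 after celastrol and 63 and 58 in the difference. Array weights left 2 members lower after heat shock, 0 of the wider list lower and 115 and 101 genes, and gave 2 and 5 of the wider list and 461 and 782 genes after celastrol. With each treatment's arrays alone, 0 members, 0 of the wider list and 0 genes were called after heat shock by limma (1154 genes at an unadjusted p under 0.05), and 3 and 5 of the wider list and 497 and 982 genes after celastrol.

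The labels give same-numbered arrays the same number and do not say whether they share a culture or batch. Their deviations correlated with r = −0.31 across genes, and whether they share a batch was not tested. With the replicate block, 0 members were called lower after heat shock (7 had been and 6 were at an unadjusted p under 0.05), 0 of the wider list, and 29 and 1 genes; after celastrol 0 of the wider list and 57 and 8 genes; and 0 and 0 genes in the difference (524 at an unadjusted p under 0.05). With the numbers crossed, an alternative added after seeing the data, 5 members were lower after heat shock, the wider list had 8 lower and 529 genes were lower after heat shock, and after celastrol 1 and 5 of the wider list and 497 genes lower.

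With an array left out, counts after heat shock ran from 0 to 1 members higher and 0 to 5 lower, 0 to 7 and 0 to 10 of the wider list, and 0 to 767 and 0 to 790 genes. After celastrol they ran from 0 to 3 and 0 to 6 of the wider list and 0 to 507 and 0 to 1003 genes. For the difference they ran from 0 to 3 members higher, 0 to 2 and 0 to 3 of the wider list, and 0 to 211 and 0 to 326 genes. The counts of 0 over all genes came from leaving out either celastrol array, where the spread rests on the heat shock arrays alone and limma called 0 genes in each comparison, with 343 to 1154 genes at an unadjusted p under 0.05. The lone array of a treatment is then assumed to vary like the other treatment. Signal over background is unknown in these files.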
